A study of Mus musculus with 12 samples.

Results

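The 47 genes described here belong to the cell division cycle and to DNA repair. They were taken by gene symbol from the 780 genes of the nCounter Mouse Tumor Signaling 360 panel: Nuf2, Mki67, Top2a, Atm and Atr by name, and all symbols that begin with Ccna, Ccnb, Ccne, Cdc plus a digit, Cdk, Mcm plus a digit, Kif plus a digit, Bub1, Aurk, Plk plus a digit, E2f, Cenp, Brca, Chek, Fanc or Xrcc, or with 3 further prefixes of DNA repair genes. The symbol alone decided. The panel was run on total RNA of whole mouse ileum, the last segment of the small intestine, from 12 mice in 4 groups of 3. G007-LK was injected into the peritoneum at 30 mg/kg, 2 times a day. STP1002 was given by mouth at 10 mg/kg or at 5 mg/kg, and controls received DMSO by mouth, once daily in each case. All groups were treated for 28 days. The 3 mice of a group were picked at random from the 8 that it held. The labels give no strain, sex or age. G007-LK mice differed from controls in compound, route and schedule, and these cannot be told apart. The comparisons with control ask how transcript levels of the cell cycle in the gut differed in mice given either compound. Both compounds target tankyrase.

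Cells divide in the ileum mainly in the crypts, where Wnt signalling keeps stem and progenitor cells cycling, and the gut-associated lymphoid tissue is another site of division. Tankyrases modify axin, a scaffold of the complex that destroys beta-catenin, so that their inhibition dampens Wnt signalling. Cyclins and cyclin-dependent kinases (CDKs) drive the cycle, E2F factors switch on genes of DNA synthesis, MCM proteins unwind origins, and kinetochore proteins, kinesins and the Aurora, Polo and Bub1 kinases run mitosis. DNA damage is sensed by the kinases Atm and Atr, which act through Chek2 and Chek1, and is mended by proteins of recombination, of the Fanconi anaemia pathway and of other repair routes.

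Depth differed widely between libraries. The deepest library, G007-LK replicate 1, held 508799 reporter counts over its genes, and the shallowest, control replicate 3, held 31901. That is a ratio of 15.9, beside 2.01 for the positive control probes. Values below are the deposited normalized signal, on a linear scale with a floor of 1. The background threshold of a library, the mean plus 2 SD of its 8 negative probes on that scale, lay between 4.33 and 40.4. Of the 47 genes, 20 exceeded it in all 12 libraries (42.6%, against 69.1% of all 780 genes), 24 in some and 3 in none. For 13 genes the mean over the 12 libraries lay below the mean threshold of 23.1. These are Aurka, Aurkb, Brca1, Ccne2, Cdk1, Chek2, Fanca, Fancd2, Fanci, Kif20a, Kif23, Rad54l and Xrcc2. They are called low here and are given by their reporter counts. Probes differ in efficiency, so levels are compared between groups and not between genes.

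With G007-LK, 2 of the 47 genes passed the test against control, Nuf2 and Chek2, both lower. Of all 780 genes, 27 passed (3.46%), 9 of them lower (1.15%). The test was limma on log2(signal + 1) with Benjamini-Hochberg adjustment over the 780 genes, at an adjusted p under 0.05, and fold changes are on that log2 scale with their SE. Log2 fold changes were below 0 for 40 of the 47 genes (85.1%) and for 54.9% of all genes. Their medians were -0.73 for the 47 and -0.09 for all 780. In a fit without G007-LK replicate 1, 28 of the 47 genes lay below 0. The medians were then -0.09 for the 47 and 0.27 for all 780. With all libraries and no adjustment, 6 of the 47 genes had a p under 0.05 and a lower level (5.38% of all genes). These were Nuf2, Chek2, Kif23, Kif20a, Cdc25c and Fanci. The G007-LK and control libraries did not overlap for 6 genes. Nuf2, Chek2, Kif23, Kif20a and Ccne2 lay lower with G007-LK (7.95% of all genes did), and Cdkn1a lay higher (10.1% of all genes). Of these, Chek2, Kif23, Kif20a and Ccne2 are low genes. Among the 34 genes that are not low, 2 had an unadjusted limma p under 0.05 and a lower level, and 1 lay lower without overlap.

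The count of calls rests on few libraries. Same-numbered G007-LK and control libraries deviated together (r of 0.60, 0.48 and 0.31 over all genes), and with the replicate number as a block 4 of the 47 genes were called, Nuf2, Chek2, Cdc25c and Kif23, among 63 genes in all (8.08%). Without control replicate 3 none was called (2.05% of all genes were), with Nuf2 at an adjusted p of 0.0510 and Chek2 at 0.0547, and without G007-LK replicate 2 the called genes were the same 4 as under the block (6.03% of all genes). Without G007-LK replicate 1 Nuf2 alone was called, with Chek2 at 0.0938. Without the 2 deepest libraries (G007-LK replicate 1 and control replicate 1), Nuf2 alone was called (2.95% of all genes).

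**Figure D1:**
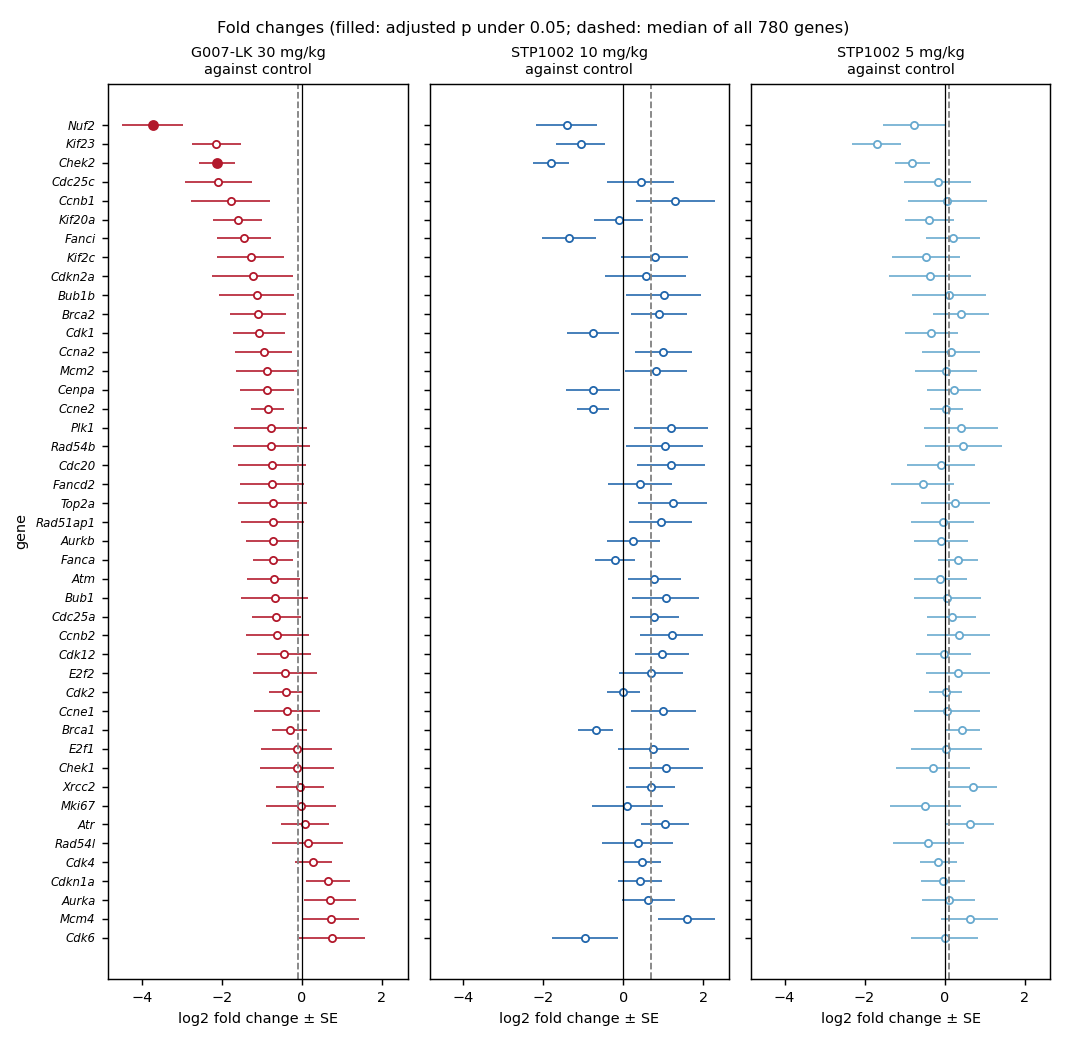
Log2 fold change with its SE (horizontal axis) of 44 of the 47 genes (vertical axis, sorted by the G007-LK fold) for G007-LK, STP1002 at 10 mg/kg and STP1002 at 5 mg/kg, each against control, with 3 libraries a group. Filled points passed the test, and the dashed line marks the median of all 780 genes. Nuf2 and Chek2 are the filled points, both with G007-LK, and with STP1002 at 10 mg/kg most points lie around a dashed line that is itself at 0.69.

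Nuf2 encodes a subunit of the NDC80 complex, by which kinetochores hold spindle microtubules. Its signal was 2.42, 7.67 and 2.55 under G007-LK, 25.5, 13.4 and 32.95 under STP1002 at 10 mg/kg, 25.9, 16.7 and 104 at 5 mg/kg, and 44.1, 61.96 and 86.1 in controls. All 3 G007-LK libraries lay below all 3 controls and below their own background thresholds, with 8, 3 and 3 reporter counts, while the 3 controls exceeded theirs with 100, 23 and 22 counts. The means were 4.21 ± 2.99 with G007-LK and 64.1 ± 21.1 in controls (SD, n = 3 each). The log2 fold change was -3.73 ± 0.77 (limma adjusted p = 0.0109), and measured against the threshold of the G007-LK libraries Nuf2 was at least 4.39-fold lower. That bound rests in part on the low threshold of the deepest library: it was 2.69-fold without G007-LK replicate 1 and 7.46-fold without replicate 2. When all values under 40.4, the highest threshold of any library, were raised to it, the log2 fold change shrank to -0.60 (limma adjusted p = 0.640). With STP1002 at 10 mg/kg the 3 libraries also lay below the 3 controls, at -1.42 ± 0.77 (limma adjusted p = 0.464, 95% interval -3.04 to 0.21), which did not pass. Of these 3 libraries 1 exceeded its background threshold, as did 2 of the 3 at 5 mg/kg. At 5 mg/kg replicate 3 lay above every control, and the log2 fold change was -0.77 ± 0.77 (-2.39 to 0.86). The centromeric histone Cenpa, the other gene of this role, had a signal of 13.3, 23 and 15.3 under G007-LK, 17.4, 15.4 and 22.8 under STP1002 at 10 mg/kg, 55.5, 28.3 and 33.5 at 5 mg/kg, and 52.4, 37.7 and 15.7 in controls. Cenpa values of each treated group overlapped those of controls. The G007-LK and STP1002 10 mg/kg values all lay below those at 5 mg/kg (9.49% and 1.92% of all genes did so). Cenpa exceeded background in 7 of the 12 libraries, 1 of them with STP1002 at 10 mg/kg. The Cenpa log2 fold change with G007-LK was -0.87 ± 0.68 (limma adjusted p = 0.715).

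**Figure D2:**
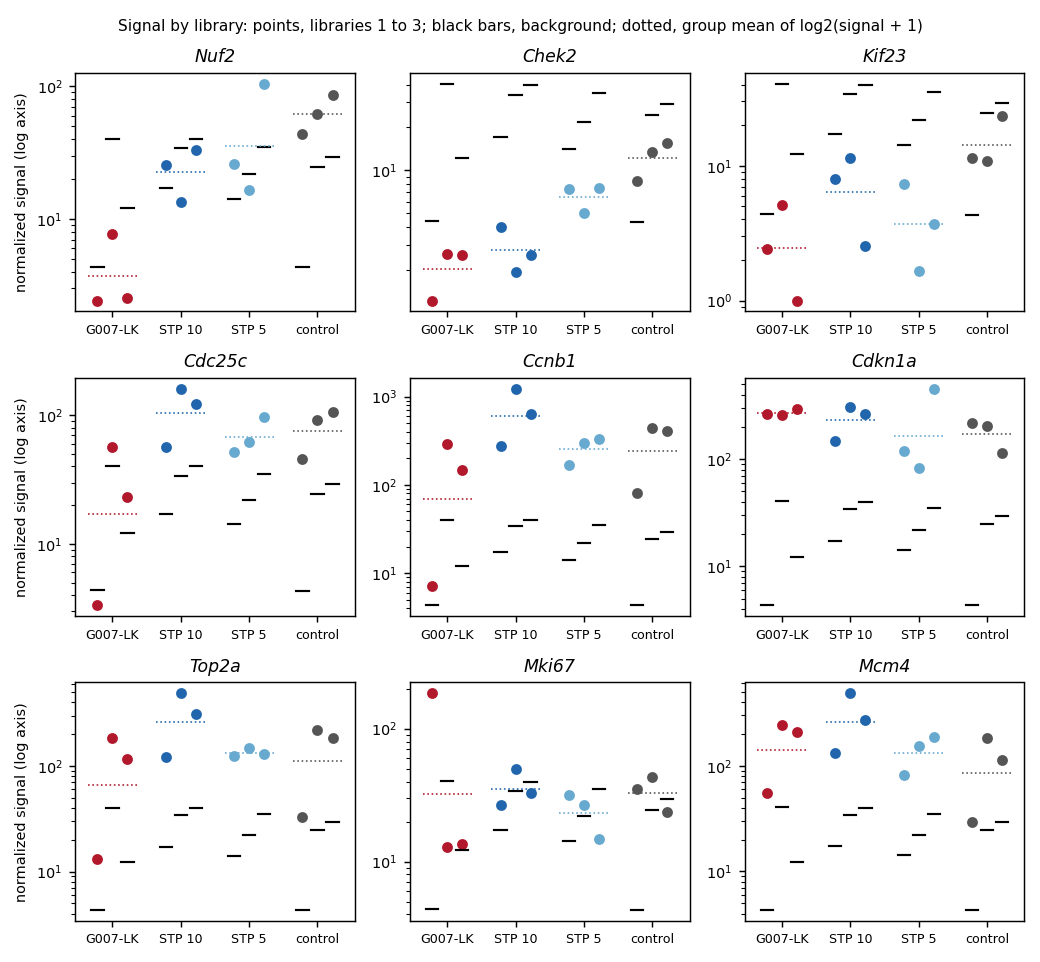
Normalized signal (log axis) of 9 genes in each library, with G007-LK, STP1002 at 10 mg/kg (STP 10), STP1002 at 5 mg/kg (STP 5) and control from left to right. Points are libraries 1 to 3 in order, black bars the background threshold of each library and dotted lines the back-transformed group mean of log2(signal + 1). Nuf2 with G007-LK lies under its background bars, Chek2 lies under the bars in 11 of the 12 libraries, and Mki67 has a single high G007-LK library.

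Chek2, the kinase that passes on the Atm signal after a double-strand break, was the other called gene, and it is low. Its reporter counts were 4, 1 and 3 under G007-LK, 3, 1 and 1 under STP1002 at 10 mg/kg, 4, 3 and 2 at 5 mg/kg, and 19, 5 and 4 in controls. It exceeded background in 1 of the 12 libraries, control replicate 1. On the signal scale it was 1.21, 2.56 and 2.55 under G007-LK, 4.02, 1.92 and 2.53 under STP1002 at 10 mg/kg, 7.39, 5 and 7.44 at 5 mg/kg, and 8.37, 13.5 and 15.7 in controls, so that the libraries of all 3 treated groups lay below every control. The log2 fold change was -2.11 ± 0.45 with G007-LK (limma adjusted p = 0.0109), -1.82 ± 0.45 with STP1002 at 10 mg/kg (limma adjusted p = 0.464) and -0.80 ± 0.45 at 5 mg/kg (limma adjusted p = 0.998). No fold can be bounded for Chek2, since its control mean lies under the G007-LK threshold. The call with G007-LK was lost after quantile normalization (-1.70, limma adjusted p = 0.0700) and without the 2 deepest libraries (-2.13, limma adjusted p = 0.0893).

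The other damage kinases did not pass the test in any comparison with control. Atm, which responds to double-strand breaks, had a signal of 19.95, 81.8 and 71.5 under G007-LK, 71.01, 253 and 149.6 under STP1002 at 10 mg/kg, 73.95, 66.7 and 85.6 at 5 mg/kg, and 44.5, 96.99 and 121 in controls. Atr, which responds to stalled forks, had 40.2, 74.1 and 84.3 under G007-LK, 76.4, 194 and 129 under STP1002 at 10 mg/kg, 70.3, 118 and 100.5 at 5 mg/kg, and 30.8, 88.9 and 78.3 in controls. Both exceeded background in all 12 libraries, and in both the lowest G007-LK value was that of replicate 1. Log2 fold changes with G007-LK were -0.71 ± 0.67 for Atm (limma adjusted p = 0.773) and 0.07 ± 0.60 for Atr (limma adjusted p = 0.984). With STP1002 at 10 mg/kg they were 0.78 ± 0.67 for Atm and 1.04 ± 0.60 for Atr. At 5 mg/kg they were -0.10 ± 0.67 for Atm and 0.64 ± 0.60 for Atr. Chek1, the kinase downstream of Atr, had a log2 fold change of -0.12 ± 0.92 with G007-LK. Its signal of 7.44 in STP1002 5 mg/kg replicate 3 was the lowest of the 12 libraries. That value is 2 reporter counts and lies under the library's background threshold of 35.2.

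Promoters of cell cycle genes are known for elements that hold them silent outside late phases of the cycle or open them before DNA synthesis. Sequence was therefore set beside the 2 called genes and the 2 proliferation markers Mki67 and Top2a. Shown are the 200 bases before the transcript start given by RefSeq on build GRCm38.p6, 5′ to 3′ on the strand of the gene. Capitals mark 3 motifs searched on both strands: the cell cycle homology region (TTTGAA or TTTAAA), the CCAAT box and an E2F site (TTTCCCGC or TTTGGCGC). For Chek2, Mki67 and Top2a this start lies inside the span annotated for the gene.
Nuf2 (chr1:169531465-169531664, minus strand): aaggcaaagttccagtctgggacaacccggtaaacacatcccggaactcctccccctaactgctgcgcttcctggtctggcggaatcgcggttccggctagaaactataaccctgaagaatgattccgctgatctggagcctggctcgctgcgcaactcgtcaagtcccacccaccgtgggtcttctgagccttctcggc
Chek2 (chr5:110839783-110839982, plus strand): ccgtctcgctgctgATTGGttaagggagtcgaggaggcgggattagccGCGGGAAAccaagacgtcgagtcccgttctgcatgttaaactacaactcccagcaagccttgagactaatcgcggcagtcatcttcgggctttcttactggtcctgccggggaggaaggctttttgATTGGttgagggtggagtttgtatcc
Mki67 (chr7:135716380-135716579, minus strand): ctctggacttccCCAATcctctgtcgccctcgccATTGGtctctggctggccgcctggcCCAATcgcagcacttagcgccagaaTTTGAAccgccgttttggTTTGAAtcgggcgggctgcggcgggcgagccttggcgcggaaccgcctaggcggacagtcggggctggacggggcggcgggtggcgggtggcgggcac
Top2a (chr11:99024190-99024389, minus strand): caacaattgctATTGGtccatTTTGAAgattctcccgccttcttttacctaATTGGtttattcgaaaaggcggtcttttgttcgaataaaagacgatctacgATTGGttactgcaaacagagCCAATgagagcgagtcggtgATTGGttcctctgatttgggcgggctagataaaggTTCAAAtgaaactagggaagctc
The Nuf2 window held none of the 3 motifs. The Chek2 window held 2 CCAAT boxes, both on the minus strand of the promoter, and 1 E2F site. Mki67 had 2 cell cycle homology elements and 3 CCAAT boxes, and Top2a had 2 and 5. RefSeq windows were at hand for 35 of the 47 genes. Of these 35, 11 held a cell cycle homology element (31.4%, against 20.2% of 27025 mouse promoter windows of this length), 22 a CCAAT box (62.9%, against 30.0%) and 5 an E2F site (14.3%, against 1.17%). These shares describe letters in a window and were not tested, and a match is not a site in use.

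Neither proliferation marker passed the test. Mki67 encodes the Ki-67 protein of cycling cells and had a signal of 184, 12.8 and 13.6 under G007-LK, 26.8, 49.9 and 32.95 under STP1002 at 10 mg/kg, 31.4, 26.7 and 14.9 at 5 mg/kg, and 35.2, 43.1 and 23.5 in controls. A single library stood apart: G007-LK replicate 1 held the highest Mki67 value of all 12 (610 reporter counts), and the other G007-LK libraries held the lowest pair. That pair is near background: replicate 2, with 5 counts, lay under its threshold of 40.4, and replicate 3, with 16, just above its 12.2. Mki67 exceeded background in 8 of the 12 libraries. The log2 fold change was -0.02 ± 0.89 with G007-LK (limma adjusted p = 0.992, 95% interval -1.90 to 1.85), it was -1.26 without replicate 1, and it turned to 0.019 after median-ratio rescaling. With STP1002 it was 0.10 ± 0.89 at 10 mg/kg (-1.77 to 1.97) and -0.49 ± 0.89 at 5 mg/kg (-2.36 to 1.39). Top2a, the topoisomerase that untangles replicated chromosomes, ran the other way in the same library. Its signal was 13, 184 and 117 under G007-LK, 121, 487 and 309 under STP1002 at 10 mg/kg, 124, 148 and 130.2 at 5 mg/kg, and 33.03, 221 and 184 in controls, and G007-LK replicate 1 was the lowest of the 12. Its log2 fold change was -0.73 ± 0.86 with G007-LK (limma adjusted p = 0.820), 1.24 ± 0.86 with STP1002 at 10 mg/kg and 0.27 ± 0.86 at 5 mg/kg. Without G007-LK replicate 1 the Top2a fold change was 0.40.

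The 3 kinesins did not pass the test in any comparison with control. Kif23, a motor of the central spindle needed for cytokinesis, is low, with reporter counts of 8, 2 and 0 under G007-LK, 6, 6 and 1 under STP1002 at 10 mg/kg, 4, 1 and 1 at 5 mg/kg, and 26, 4 and 6 in controls. Its log2 fold change was -2.14 ± 0.61 with G007-LK (limma adjusted p = 0.0714), and with the replicate block it was called (limma adjusted p = 0.0395). With STP1002 it was -1.70 ± 0.61 at 5 mg/kg, the smallest unadjusted p of the 47 genes in that comparison (limma adjusted p = 0.998). Kif20a, another cytokinesis kinesin, is low too, with reporter counts of 0, 3 and 5 under G007-LK, 10, 4 and 6 under STP1002 at 10 mg/kg, 5, 5 and 3 at 5 mg/kg, and 27, 8 and 2 in controls and a log2 fold change of -1.60 ± 0.61 with G007-LK (limma adjusted p = 0.202). Neither gene was above background in more than 1 of 12 libraries. Kif2c, a microtubule depolymerase, had a log2 fold change of -1.28 ± 0.84 with G007-LK.

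Among the phosphatases that activate CDKs, Cdc25c acts at the entry into mitosis. Its signal was 3.33, 56.2 and 22.99 under G007-LK, 56.3, 161 and 122 under STP1002 at 10 mg/kg, 51.8, 61.7 and 96.7 at 5 mg/kg, and 45.4, 91.6 and 106 in controls. The groups overlapped, since G007-LK replicate 2 lay above control replicate 1. The log2 fold change with G007-LK was -2.09 ± 0.84 (limma adjusted p = 0.233), and it was called with the replicate block (limma adjusted p = 0.0229), after quantile normalization (0.0385) and when G007-LK replicate 2 was left out (0.0479). The log2 fold change shrank to -1.06 (limma adjusted p = 0.719) when replicate 1 was left out. Cdc25a, which acts earlier in the cycle, had a signal of 23.3, 69.01 and 55.4 under G007-LK, 91.1, 194 and 101 under STP1002 at 10 mg/kg, 83.2, 55.01 and 112 at 5 mg/kg, and 54.2, 102 and 62.7 in controls and a log2 fold change of -0.64 ± 0.61 with G007-LK (limma adjusted p = 0.773). The transcription factors E2f1 and E2f2 had log2 fold changes of -0.13 ± 0.89 and -0.42 ± 0.80 with G007-LK. E2f1 turned to 0.26 after quantile normalization, and E2f2 to 0.11 with a common background floor.

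Of the 10 cyclins and CDKs, 8 had a log2 fold change below 0 with G007-LK (54.9% of all genes) and none passed the test. Ccnb1, the cyclin that takes Cdk1 into mitosis, had a signal of 7.25, 289 and 148 under G007-LK, 276, 1229.7 and 639 under STP1002 at 10 mg/kg, 170.1, 300.1 and 327 at 5 mg/kg, and 80.2, 439 and 407 in controls. G007-LK replicate 1 was the lowest library and STP1002 10 mg/kg replicate 2 the highest, and the groups overlapped. Its log2 fold change was -1.78 ± 0.99 with G007-LK (limma adjusted p = 0.495, 95% interval -3.88 to 0.31), and without G007-LK replicate 1 it was -0.23. Ccne2, which serves the start of DNA synthesis with Cdk2, is low. Its reporter counts were 10, 1 and 3 under G007-LK, 2, 2 and 1 under STP1002 at 10 mg/kg, 3, 3 and 2 at 5 mg/kg, and 13, 3 and 1 in controls, and its log2 fold change was -0.86 ± 0.41 with G007-LK (limma adjusted p = 0.376) and -0.75 ± 0.41 with STP1002 at 10 mg/kg. Ccna2 and Ccnb2, cyclins of DNA synthesis and of mitosis, had -0.95 ± 0.72 and -0.62 ± 0.79 with G007-LK. The highest fold changes of the role with G007-LK were those of Cdk6 and Cdk4, kinases of the D-type cyclins, at 0.76 ± 0.83 and 0.28 ± 0.47.

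CDK inhibitors were split. Cdkn1a, the p53-induced inhibitor p21, had a signal of 262, 258 and 294 under G007-LK, 149, 305 and 266 under STP1002 at 10 mg/kg, 120.2, 83.4 and 454 at 5 mg/kg, and 218, 202 and 114 in controls. The 3 G007-LK values lay above the 3 controls, yet within the range of the STP1002 5 mg/kg group. The log2 fold change was 0.66 ± 0.55 with G007-LK (limma adjusted p = 0.721) and did not pass. Cdkn2a, the locus of p16 and ARF, had 3.02, 71.6 and 28.95 under G007-LK, 37.5, 121 and 76.1 under STP1002 at 10 mg/kg, 18.5, 58.4 and 44.6 at 5 mg/kg, and 12.8, 72.7 and 109.6 in controls and a log2 fold change of -1.23 ± 1.02 (limma adjusted p = 0.719), with G007-LK replicate 1 again the lowest of the 12.

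Origin licensing was represented by 2 subunits of the replicative helicase. Mcm4 had a signal of 55.6, 240.3 and 208 under G007-LK, 131, 483 and 271 under STP1002 at 10 mg/kg, 81.3, 153 and 186 at 5 mg/kg, and 29.1, 183 and 114 in controls, and Mcm2 had 13, 38.3 and 37.5 under G007-LK, 42.9, 180.3 and 91.3 under STP1002 at 10 mg/kg, 31.4, 55.01 and 78.1 at 5 mg/kg, and 20.7, 72.7 and 82.2 in controls. In both genes replicate 2 of STP1002 at 10 mg/kg was the highest of the 12 libraries. Mcm4 had a log2 fold change of 0.72 ± 0.71 with G007-LK and 1.59 ± 0.71 with STP1002 at 10 mg/kg, where its unadjusted p was 0.0393 (limma adjusted p = 0.464). Mcm2 had -0.88 ± 0.77 with G007-LK.

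The 6 genes of the mitotic kinases, the spindle checkpoint and its target, the anaphase-promoting complex (APC), had a median log2 fold change of -0.74 with G007-LK, and none passed. Cdc20, the APC activator, had a signal of 17.5, 276 and 198 under G007-LK, 185, 742 and 421 under STP1002 at 10 mg/kg, 122, 183 and 182 at 5 mg/kg, and 59.02, 299 and 270.2 in controls. Bub1b, which restrains Cdc20 until chromosomes are attached, had 2.72, 33.2 and 28.1 under G007-LK, 32.2, 132 and 70.98 under STP1002 at 10 mg/kg, 25.9, 46.7 and 37.2 at 5 mg/kg, and 10.1, 53.9 and 62.7 in controls. In both, G007-LK replicate 1 was lowest, and replicates 2 and 3 lay among the controls. Log2 fold changes with G007-LK were -0.75 ± 0.85 for Cdc20 and -1.13 ± 0.93 for Bub1b (limma adjusted p = 0.808 and 0.719). Plk1 and Bub1, kinases of mitotic progression, had -0.78 ± 0.92 and -0.67 ± 0.84. Aurka and Aurkb were low and above background in 0 and 2 libraries.

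Recombination and Fanconi genes counted 9 of 10 below 0 with G007-LK, with a median of -0.74 and no call. Fanci, which with Fancd2 forms the clamp that marks crosslinked DNA, is low. Its reporter counts were 4, 3 and 2 under G007-LK, 2, 2 and 1 under STP1002 at 10 mg/kg, 7, 3 and 5 at 5 mg/kg, and 36, 1 and 4 in controls, with log2 fold changes of -1.44 ± 0.67 with G007-LK (limma adjusted p = 0.373) and -1.35 ± 0.67 with STP1002 at 10 mg/kg (limma adjusted p = 0.464). Brca2, a recombination mediator, had -1.095 ± 0.70 with G007-LK, and Brca1 had -0.30 ± 0.44 at low counts of 1 to 11 per library. Xrcc2, which also acts in recombination, is low. Its reporter counts were 14, 1 and 4 under G007-LK, 3, 3 and 4 under STP1002 at 10 mg/kg, 6, 1 and 3 at 5 mg/kg, and 4, 1 and 2 in controls, and its log2 fold change was 0.71 ± 0.61 with STP1002 at 5 mg/kg.

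**Figure D3:**
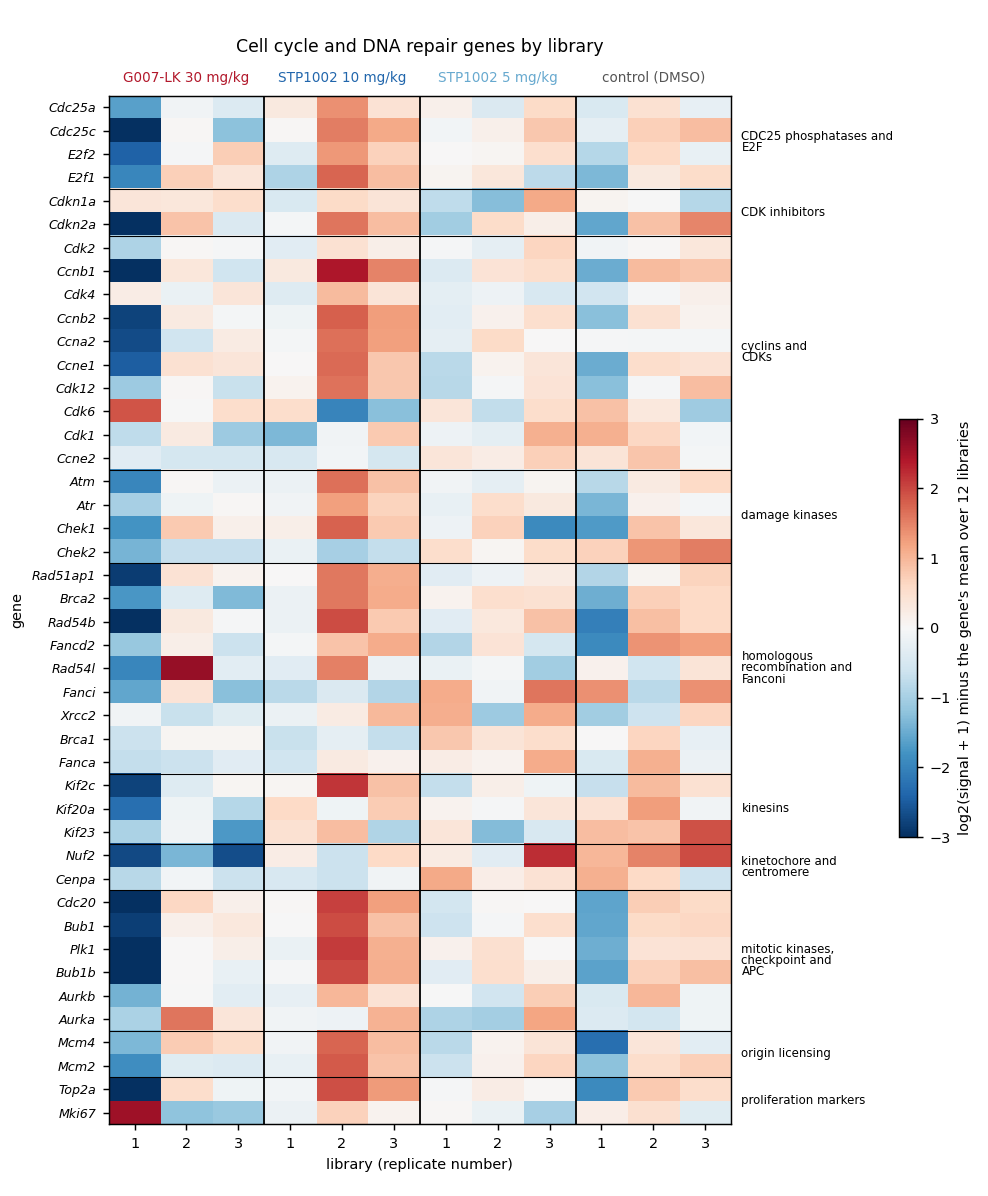
Each row is 1 of 44 of the 47 genes, grouped by role, and each column 1 library, ordered G007-LK, STP1002 at 10 mg/kg, STP1002 at 5 mg/kg and control. Colour is log2(signal + 1) minus the gene's mean over the 12 libraries, with the scale clipped at both ends. G007-LK replicate 1 is blue and STP1002 10 mg/kg replicate 2 is red across most roles. Mki67 and Cdk6 depart from the G007-LK column, and Nuf2, Chek2 and Cdk6 are among the rows that depart from the STP1002 column. Nuf2 and Chek2 are blue in G007-LK replicate 1 as well.

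Much of the spread of these genes ran by library. The median of the 47 centred log2 values was -1.86, 0.02 and -0.16 in G007-LK replicates 1 to 3, -0.10, 1.53 and 0.80 with STP1002 at 10 mg/kg, -0.14, 0.10 and 0.43 at 5 mg/kg and -0.85, 0.57 and 0.43 in controls. Library 1 was the lowest of its group in all 4 groups. The same median over all 780 genes was -0.81, 0.16 and 0.03 with G007-LK, -0.05, 1.07 and 0.52 with STP1002 at 10 mg/kg, -0.25, 0.03 and 0.08 at 5 mg/kg and -0.78, 0.13 and 0.14 in controls. After median-ratio rescaling of the libraries, 36 of the 47 genes varied less over the 12 libraries (76.6%, against 60.3% of all genes), and the median SD of the 47 was 0.79, against 1.05 as deposited. Nuf2, Chek2, Mki67, Kif23, Cdk1, Cdk6, Cdkn1a, Cenpa, Fanci, Ccne2 and Brca1 did not vary less. In G007-LK replicate 1 the rescaled median of the 47 genes was still -1.05, against -0.10 and -0.17 in replicates 2 and 3. Without that library the median log2 fold change of the 47 genes with G007-LK was -0.09, beside 0.27 for all genes.

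**Figure D4:**
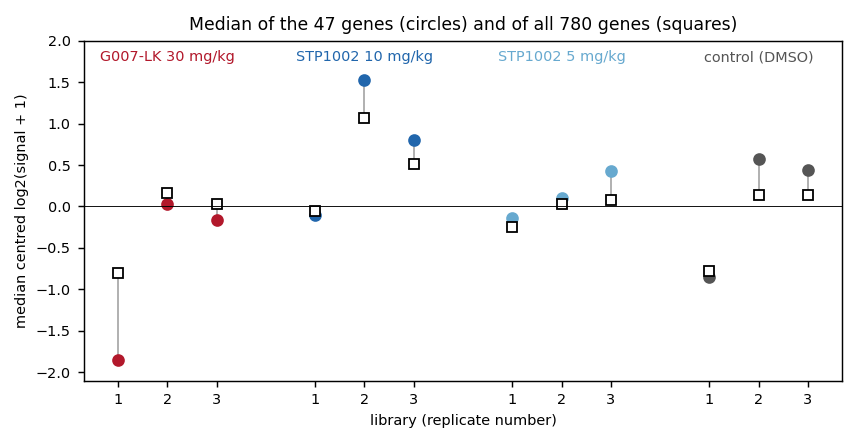
Median over the 47 genes (circles) and over all 780 genes (squares) of log2(signal + 1), centred on each gene's mean over the 12 libraries, by library and group. Circles and squares move together between libraries, with the widest gap in G007-LK replicate 1 (-1.86 and -0.81).

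Markers of epithelium and of myeloid cells differed between G007-LK and control libraries as well, and the summed matrix markers lay higher with G007-LK. Summed signal of the epithelial markers, 6 measured of 21 listed (Cdh1, Epcam, Erbb3, Sfn, Spint1 and Spint2), was 477, 1068 and 1717 under G007-LK, 7440.2, 3737 and 6211 under STP1002 at 10 mg/kg, 10063, 2199 and 15219.6 at 5 mg/kg, and 10508, 7005 and 4209 in controls. The G007-LK sums lay below all controls, and Erbb3, Spint2 and Sfn fell while the other 3 did not pass. Myeloid markers, 10 measured of 14, summed to 6529, 5009.9 and 3889 under G007-LK, 1308, 2141 and 1501 under STP1002 at 10 mg/kg, 1233, 985 and 1376 at 5 mg/kg, and 686, 932 and 1053 in controls, and Cd14, Cd68, Cd84, Cybb and Tyrobp rose with G007-LK. Of these 10 markers, 9 had a log2 fold change above 0 against control. The other 1 lay below 0, with a limma unadjusted p under 0.05 (5.38% of all genes) and no call. T and NK cell markers, 15 of 18, summed to 117, 979 and 821 under G007-LK, 837, 2751 and 1617 under STP1002 at 10 mg/kg, 823, 930.2 and 1008 at 5 mg/kg, and 356, 1075 and 971 in controls, and B and plasma cell markers, 6 of 15, to 92.8, 603 and 451 under G007-LK, 1201, 1289 and 1131 under STP1002 at 10 mg/kg, 1808, 1162 and 435 at 5 mg/kg, and 108, 469 and 482 in controls, with no call in either list. Matrix markers (5 of 13) summed to 2938, 1871 and 2209 under G007-LK and to 1187, 762 and 1171 in controls. With STP1002 they summed to 953, 1235 and 796 at 10 mg/kg and to 691, 809 and 997 at 5 mg/kg. All 3 G007-LK sums lay above those of the other libraries. Against control 4 of the 5 had a log2 fold change above 0 (45.1% of all genes), 3 with a limma unadjusted p under 0.05 (7.82%). None was called against control, and 1 was called higher against each STP1002 dose (2.05% and 1.79%). Endothelial markers (5 of 7) had no call. The signal has a floor of 1, so a value of 0 cannot occur. Above background in all 12 libraries were 6 of the 6 epithelial, 6 of the 10 myeloid and 7 of the 15 T and NK cell markers. The same held for 4 of the 6 B and plasma cell, 5 of the 5 matrix and 3 of the 5 endothelial markers. Intestinal markers such as Vil1, Cdx2, Fabp6 and Lgr5 were listed but are not among the 6 measured. The label ileum was therefore not checked beyond the epithelial genes above. In tissue RNA fewer cells of a type and less RNA per cell cannot be told apart, and the part of cell composition in the fold changes of Nuf2 and Chek2 was not tested.

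With STP1002 at 10 mg/kg, none of the 47 genes passed the test against control, nor did any of the 780 (0%). Without adjustment 2 of the 47 had a p under 0.05, Mcm4 higher and Chek2 lower, beside 4.62% of all genes. The smallest limma adjusted p of the 47 was 0.464. Log2 fold changes were above 0 for 36 genes and below 0 for 11 (22.3% of all genes lay below 0), with a median of 0.75 for the 47 and 0.69 for all. After median-ratio rescaling the medians were 0.09 and 0.01. The 5 genes with the smallest p were Chek2, Mcm4, Fanci, Ccne2 and Nuf2, described above, and of these Mcm4 alone had a value above 0.

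With STP1002 at 5 mg/kg, again none of the 47 genes and none of the 780 passed (0%). Kif23 alone had an unadjusted p under 0.05, beside 2.31% of all genes. Values lay below 0 for 21 of the 47 genes (36.4% of all genes), with medians of 0.04 and 0.12. Next by p after Kif23 came Chek2, Xrcc2, Atr and Brca1, the last with 0.45 ± 0.44 (95% interval -0.48 to 1.38). All 47 had a limma adjusted p of 0.998. With 3 mice a group the intervals are wide, and that of Top2a at this dose ran from -1.55 to 2.09.

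Between the compounds, dose, route and schedule differ too, so these values stand side by side. G007-LK against STP1002 at 10 mg/kg gave no call among the 47 genes (3.08% of all genes) and 18 lower at an unadjusted p under 0.05 (18.3% of all genes), with a median of -1.28 beside -0.74 for all genes. After median-ratio rescaling these medians were -0.57 and -0.03, and 33 of the 47 genes lay below 0, against 43 as deposited. Same-numbered libraries of these groups deviated together (r of 0.56, 0.45 and 0.14), and with the replicate block 23 of the 47 were called, 22 lower and Cdk6 higher, among 33.3% of all genes. Ccnb1 had -3.09 ± 0.99 (limma adjusted p = 0.117, and 0.00102 with the block), the smallest p of the 47. Against STP1002 at 5 mg/kg, G007-LK gave 1 call, Nuf2 at -2.96 ± 0.77 (limma adjusted p = 0.0461, at least 2.57-fold lower), beside 2.82% of all genes. That call was lost in 9 of the 12 fits that left out a single library and after median-ratio rescaling, and the bound was 1.52-fold without replicate 3 of STP1002 at 5 mg/kg and 1.58-fold without G007-LK replicate 1. STP1002 at 10 against 5 mg/kg gave no call among the 47 or the 780 (0%), 3 of the 47 had an unadjusted p under 0.05 (2.31% of all genes), and Mki67 differed by 0.58 ± 0.89 (95% interval -1.29 to 2.46). A single test for any difference among the 4 groups called Chek2 (limma adjusted p = 0.0342) and Nuf2 (0.0407), beside 2.69% of all genes, and 7 of the 47 genes had an unadjusted p under 0.05, beside 12.2%.

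Of 148 further genes of the cell cycle and DNA repair that were listed, 45 are on the panel. With G007-LK 2 of them fell (1.15% of all 780 genes did), 33 had a log2 fold change below 0 (73.3%, against 54.9% of all genes), and their median was -0.41, beside -0.09 for all genes. Ccnd1, the D-type cyclin that starts the cycle and a known Wnt target, had -4.32 ± 0.66 (limma adjusted p = 0.00138), and Sfn, the epithelial 14-3-3 protein sigma known for its part in the arrest before mitosis, had -3.37 ± 0.77 (limma adjusted p = 0.0188). Sfn also stands on the epithelial marker list. With STP1002 none of the 45 passed at either dose, and Ccnd1 had -1.11 ± 0.66 at 10 mg/kg and -0.30 ± 0.66 at 5 mg/kg.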

How the data were processed

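Total RNA of ileum (RNA integrity number above 7.0) was counted on a panel that holds 760 genes of tumour biology and 20 for housekeeping, per the labels. The deposited values are a normalized signal on a linear scale, made by the authors. From the values, 98.7% to 100% of the 780 gene values of a library are a whole reporter count times 1 factor, within 0.1 of a count, with a floor of 1, and the 8 negative and 6 positive control rows are unscaled. The software and reference genes of that step, and any aligner or build, are not given in the sources used here. Depth was 31901 to 508799 reporter counts per library, so a gene at a few counts has a wide counting error.

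Group means over all 12 libraries were fitted with limma 3.58.1 in R 4.3.3 (lmFit, eBayes with trend, two-sided) to log2(signal + 1) with a pseudocount of 1 and no filter. Benjamini-Hochberg adjustment ran over the 780 genes of a comparison. The 47 genes, their roles and the gene lists were chosen with earlier results of these data known. Named with statistics were called genes, Mki67, Top2a, Nuf2, Atm and Atr, the 5 genes with the smallest p in each comparison with control and up to 4 per role, and values by library were given for up to 2 per role. Xrcc2 was placed with recombination. Of the 47 genes, 3 are counted in all totals but are not reported here by name. All 47 symbols matched RefSeq (GRCm38.p6).

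Replicates are separate mice, per the labels. Their numbers were read as pairing libraries where every correlation of same-numbered deviations exceeded 0.1, a cutoff set here: G007-LK with control (0.31 to 0.60), STP1002 at 10 mg/kg with control (0.16 to 0.78) and G007-LK with STP1002 at 10 mg/kg (0.14 to 0.56). The block fit nevertheless covered all 4 groups, STP1002 at 5 mg/kg included, where a correlation was as low as 0.01. Calls with the block rest on a pairing that the design does not establish. The labels do not say what a number shares. Alternatives were median-ratio rescaling, quantile normalization, a pseudocount of 10, a filter to genes above background in at least 3 libraries, a common background floor, the replicate block, and omission of the 2 deepest libraries or of each library in turn. The fit was tested on simulated data with known changes. The 2 planned tests on recovered counts were left out, not found impossible: the columns as deposited, with unscaled control rows and floor values, did not all meet the criterion set for whole counts.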

Additional observations from a re-analysis of the deposited data

How the results depend on the processing

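The 2 calls of G007-LK against control (Nuf2, Chek2) became 1 with the filter on low genes, 0 with the common background floor, 2 with another gene after quantile normalization (Nuf2 and Cdc25c, with Chek2 lost), 4 with the replicate block and 1 without the 2 deepest libraries, and 0 to 4 when single libraries were left out (lowest without control replicate 3, highest without replicate 2 of G007-LK, and 1 without its replicate 1). Against STP1002 at 10 mg/kg the count of 0 became 23 with the replicate block and 1 (Ccnb1) without the 2 deepest libraries, and 0 to 3 with single libraries left out. Against STP1002 at 5 mg/kg the 1 call became 0 after median-ratio rescaling, after quantile normalization, with a pseudocount of 10 and with the common floor, and 4 with the replicate block, whose numbers do not pair these groups, and it was 0 to 1 with single libraries left out. The test of any difference, with 2 calls, gave 0 after median-ratio rescaling, with a pseudocount of 10 and with the common floor, 1 after quantile normalization, with the filter and without the 2 deepest libraries, 8 with the replicate block, and 0 to 2 with single libraries left out. Counts for STP1002 against control and between its doses were 0 in all alternatives that were run. The block changed no other call among the comparisons that it pairs. The planned count tests were not run.

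Of 48 named log2 fold changes, 39 kept their sign in the 7 alternatives other than omission of single libraries. With G007-LK, Mki67 turned to 0.019 (median-ratio), 0.13 (pseudocount 10) and 0.69 (common floor), Atr to -0.051 (common floor) and -0.077 (without the 2 deepest), Chek1 to 0.29 and Brca1 to 0.080 (quantile), E2f1 to 0.26 (quantile), 0.035 (common floor) and 0.11 (without the 2 deepest), and E2f2 to 0.11 (common floor) and 0.16 (without the 2 deepest). With STP1002 at 10 mg/kg, Mki67 turned to -0.58 (median-ratio) and -0.54 (quantile) and Atm to -0.010 (quantile). At 5 mg/kg Top2a turned to -0.11 (quantile) and -0.59 (without the 2 deepest). The cause was not tested. With single libraries left out, sign changed with G007-LK for Mki67 (-1.26 to 0.62), Top2a (-1.59 to 0.40), Atr (-0.40 to 0.39), Chek1 (-0.89 to 0.63), E2f1 (-0.72 to 0.70), E2f2 (-1.07 to 0.51), Ccnb2 (-1.18 to 0.34), Cdc20 (-1.50 to 0.47), Plk1 (-1.41 to 0.31), Bub1 (-1.39 to 0.34) and Mcm4 (-0.035 to 1.39), with STP1002 at 10 mg/kg for Mki67 (-0.14 to 0.29), and at 5 mg/kg for Top2a (-0.59 to 0.76) and Atm (-0.53 to 0.19). The median of the 47 genes at 5 mg/kg, 0.04, turned to -0.09 after median-ratio rescaling, -0.24 after quantile normalization and -0.42 without the 2 deepest libraries, and ran from -0.42 to 0.27 with single libraries left out.

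Depth limits the 13 low genes most: several rest on 1 to 5 reporter counts in the shallow libraries, so that their values there carry a wide counting error, that of the called gene Chek2 included.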
